A study of Mus musculus with 6 samples.

Results

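A set of 10 genes of the actin and myosin contractile machinery and of serum response factor, SRF, were taken by name from the 53465 genes of the deposited count table: Acta2, Tagln, Cnn1, Cnn2, Myl9, Tpm1, Tpm2, Tpm4, Srf and Vim. All 10 were found. The rule takes them by name and uses no measured value, although the names were set with earlier results of these data known. They were compared between 2 variants of 4T1, a mouse mammary carcinoma line from the Balb/c strain. P is the parental line. AxR is the axitinib-resistant line, grown from a metastatic lesion in a mouse given axitinib, a VEGF receptor tyrosine kinase inhibitor, at 100 mg/kg/day before and after its primary tumor was removed, and then kept in culture with 0.5 μM axitinib. RNA from 3 libraries of each line was sequenced. The growth label names 0.5 μM axitinib for all 6 samples while the treatment labels name it for AxR alone, so the drug state of the P cultures is uncertain. AxR is 1 line, and drug exposure, passage through an animal, culture history and the line itself cannot be told apart. The labels do not say that replicates were separate cultures, so p-values measure the spread between these libraries, which may be technical.

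Actomyosin filaments pull when myosin II heads move along actin, and tropomyosins lie along the actin filament and control which partners reach it. SRF is a DNA-binding factor that recognises the CArG box and works with 2 kinds of cofactor. Myocardin-related factors (MRTF-A and MRTF-B, genes Mrtfa and Mrtfb) are held in the cytoplasm by actin monomers and carry the state of the actin pool to muscle and cytoskeletal genes. Ternary complex factors of the ELK family answer growth factor signals at immediate-early genes. In mammary tissue the smooth muscle genes of this pathway are best known from myoepithelial cells and from the stroma.

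Estimated counts per library ran from 15495260 to 17294525. Levels are given as CPM, counts scaled to a common library size by the upper quartile method, and 3 counts correspond to 0.171 to 0.196 CPM. Changes are log2 fold changes (log2FC) of AxR against P from edgeR's quasi-likelihood test, adjusted by the Benjamini-Hochberg method over 13550 genes tested, with a threshold of 0.05. At that threshold 32.8% of all genes tested were higher in AxR and 30.8% were lower, with a median log2FC of 0.0058, so a call by itself sets no gene apart. The libraries of the lines did not overlap for 68.3% of genes. With 3 libraries against 3, an exact two-sided permutation test cannot give a p below 0.1. All 10 of the epithelial markers examined were expressed well enough to be tested, while 0 of 6 leukocyte and 0 of 5 endothelial markers were. The summed leukocyte markers stayed between 0.0652 and 0.365 CPM in every library, and the summed endothelial markers between 0.191 and 0.693 CPM. In bulk RNA, fewer cells of a type and less RNA per cell cannot be told apart.

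Of the 10 genes, 6 passed the filter on low counts. Cnn2, Tpm1, Tpm2 and Srf were higher in AxR, and Tpm4 and Vim were lower, beside 63.5% of all genes called in either direction. The other 4, Acta2, Tagln, Cnn1 and Myl9, are the genes best known from smooth muscle, and they lay at or near 0 in both lines. Tpm2 passed the filter only through its AxR libraries, and with at least 10 counts required in every library 3 genes were higher and 2 lower. Contractile genes of the set expressed in both lines were thus Tpm1, Tpm4 and Cnn2, while Tpm2 was near the floor in P. The set is named for contractile genes, yet its smooth muscle genes had almost no reads in either line.

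The CArG box is where SRF binds, so the 250 bases before each transcript start were read from the RefSeq promoter table (GRCm38.p6) and searched for 2 C, then 6 letters that are each A or T, then 2 G. That pattern reads the same way on either strand, so 1 search covered both. Of the 10 genes, 9 had a window in the table; Tagln did not. A full box was present in 1.47% of the 32851 windows of the table, and 0.0183% held at least 2. Among the 9 genes, Srf, Cnn2 and Myl9 held a full box. The set was named for contractile genes and SRF targets, so its share of boxes is not a separate result. The windows below are shown because they carry the full boxes, the near boxes of the smooth muscle actin, and, for Tpm2, a window without any. Each is written 5′ to 3′ on the strand of the gene, with full boxes in capitals, except that in Acta2 the capitals mark boxes 1 letter off the pattern.
Srf, chr17:46556163-46556412, minus strand: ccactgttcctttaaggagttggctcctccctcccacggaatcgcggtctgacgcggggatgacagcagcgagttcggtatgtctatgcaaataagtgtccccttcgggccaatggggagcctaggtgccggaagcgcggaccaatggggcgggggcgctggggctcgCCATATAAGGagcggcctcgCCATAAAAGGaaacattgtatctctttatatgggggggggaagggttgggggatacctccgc
Cnn2, chr10:79988350-79988599, plus strand: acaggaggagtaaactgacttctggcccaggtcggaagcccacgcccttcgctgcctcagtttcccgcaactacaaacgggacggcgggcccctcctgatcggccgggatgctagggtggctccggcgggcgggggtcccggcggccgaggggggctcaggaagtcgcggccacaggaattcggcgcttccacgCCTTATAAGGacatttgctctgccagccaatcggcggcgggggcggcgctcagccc
Myl9, chr2:156775214-156775463, plus strand: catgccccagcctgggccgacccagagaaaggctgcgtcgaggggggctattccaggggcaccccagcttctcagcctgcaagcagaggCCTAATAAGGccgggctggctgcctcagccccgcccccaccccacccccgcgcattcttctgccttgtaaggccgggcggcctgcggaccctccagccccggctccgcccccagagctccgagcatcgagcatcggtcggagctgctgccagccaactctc
Acta2, chr19:34255374-34255623, minus strand: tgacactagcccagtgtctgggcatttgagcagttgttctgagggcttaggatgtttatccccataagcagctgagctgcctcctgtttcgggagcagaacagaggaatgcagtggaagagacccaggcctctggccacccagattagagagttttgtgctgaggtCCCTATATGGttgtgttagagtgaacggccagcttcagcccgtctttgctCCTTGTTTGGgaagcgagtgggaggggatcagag
Tpm2, chr4:43523555-43523804, minus strand: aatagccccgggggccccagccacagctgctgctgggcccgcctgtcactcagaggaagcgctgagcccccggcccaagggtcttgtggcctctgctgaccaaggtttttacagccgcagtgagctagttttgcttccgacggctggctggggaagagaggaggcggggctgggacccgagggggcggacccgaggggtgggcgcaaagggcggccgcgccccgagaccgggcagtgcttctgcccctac
Actg1, chr11:120348496-120348745, minus strand: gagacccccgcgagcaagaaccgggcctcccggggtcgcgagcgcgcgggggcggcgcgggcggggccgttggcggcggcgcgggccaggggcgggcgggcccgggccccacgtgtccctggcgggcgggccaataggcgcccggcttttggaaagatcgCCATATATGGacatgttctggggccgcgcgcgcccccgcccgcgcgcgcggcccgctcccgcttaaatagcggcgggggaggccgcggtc

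The Srf window held 2 full boxes, which began 82 and 62 bases before the start. The Cnn2 box began 56 bases before the start and the Myl9 box 161 bases before it. Actg1, the cytoplasmic gamma actin, is not among the 10 genes but is shown because its change was large, and its full box began 90 bases before the start. Boxes 1 letter off, which 17.5% of all windows hold, were present in Acta2 at 84 and 34 bases, in Tpm1 at 221 and 80 bases, in Srf at 39 bases and in Myl9 at 99 bases. No full or near box lay in the windows of Cnn1, Tpm2, Tpm4 or Vim. The windows of Tpm4 and Vim lay inside the gene as GENCODE places it, and those of Acta2, Tpm1 and Tpm2 mostly did. For these genes the GENCODE start lies farther upstream than the RefSeq start, so the bases before it were not fully searched. Such a match describes the letters of this window and not binding, and introns and more distant sequence were not searched. Genes with a full box did not share a level: Srf and Cnn2 were expressed and higher in AxR, while Myl9 had no count in any library.

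**Figure D1:**
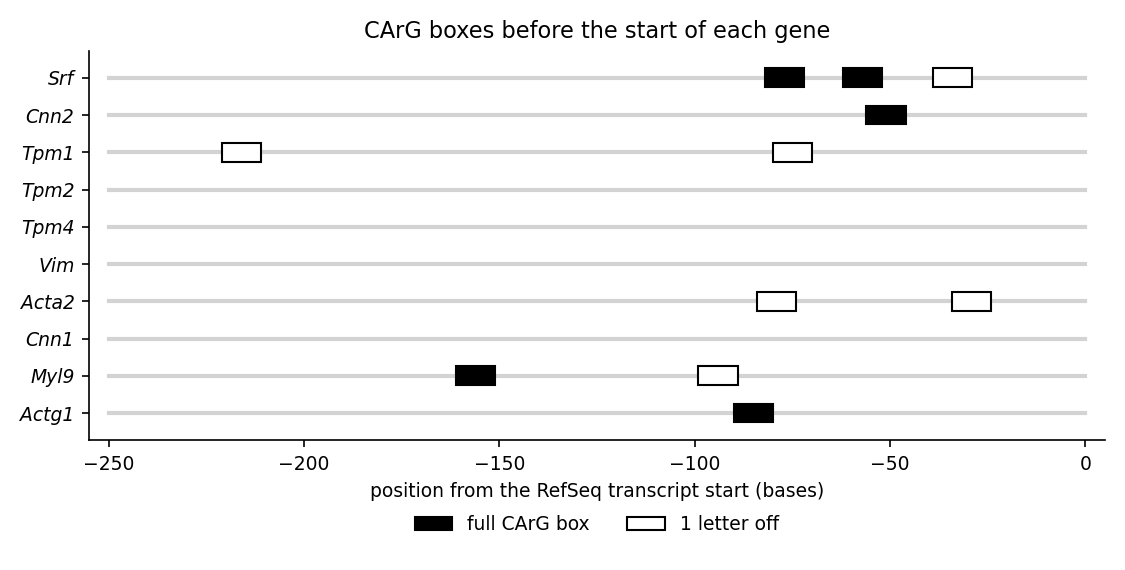
CArG boxes in the 250 bases before the RefSeq transcript start (horizontal axis, bases from the start) of 9 of the 10 genes and of Actg1. Filled bars are full boxes and open bars are boxes 1 letter off; Srf holds 2 full boxes, at 82 and 62 bases, and the lines of Tpm2, Tpm4, Vim and Cnn1 are empty.

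Acta2 encodes smooth muscle alpha actin, the actin of myofibroblasts and myoepithelial cells, and its gene lies at chr19:34241090-34255590 on GRCm38. Its counts were 0, 0 and 1 in the P libraries and 2, 2 and 4 in the AxR libraries. The highest library, AxR replicate 3, reached 0.228 CPM. Every AxR library lay above every P library, but 9 reads over 6 libraries are at the counting floor, and without the filter the adjusted p was 0.12 by edgeR's quasi-likelihood test.

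Tagln encodes transgelin, an actin-bundling protein of smooth muscle, at chr9:45929619-45936058. Its levels were 0.547, 0.173 and 0.522 CPM in P and 0.699, 0.383 and 0.455 CPM in AxR. The lines overlapped, at 0.414 ± 0.209 CPM (SD, n = 3) and 0.512 ± 0.165 CPM (SD, n = 3). The gene lies opposite Pcsk7, at 17.9 CPM in P and 11.1 CPM in AxR, and since the strand setting of the counting is not given in the sources used here, reads of the pair may not be fully separated. Tagln2, the transgelin of non-muscle cells, supplied 99.8% of the transgelin total per kb of exon in both lines.

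Cnn1 encodes calponin 1, which binds actin and slows myosin in smooth muscle, at chr9:22099216-22109630. It had 2, 1 and 0 counts in P and 6, 0 and 3 in AxR, so both lines held a library with no read. Myl9, at chr2:156775420-156781658, encodes a smooth muscle regulatory light chain of myosin II, the chain whose phosphorylation switches the motor on. Myl9 had 0 counts in every library, so its level could be as high as 0.196 CPM in P replicate 3, the shallowest. No difference between the lines was detectable for either gene at this depth.

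The other smooth muscle and pericyte markers gave a like picture. Of 10 listed, 1 was tested, Smtn, which encodes smoothelin and fell from 162 ± 11.4 to 121 ± 12.1 CPM (SD, n = 3; log2FC -0.42, adjusted p 0.000154 by edgeR's quasi-likelihood test). The summed list ran from 156 to 176 CPM in P and from 112 to 136 CPM in AxR, nearly all of it Smtn, and Actg2, the enteric smooth muscle actin, had no count.

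**Figure D2:**
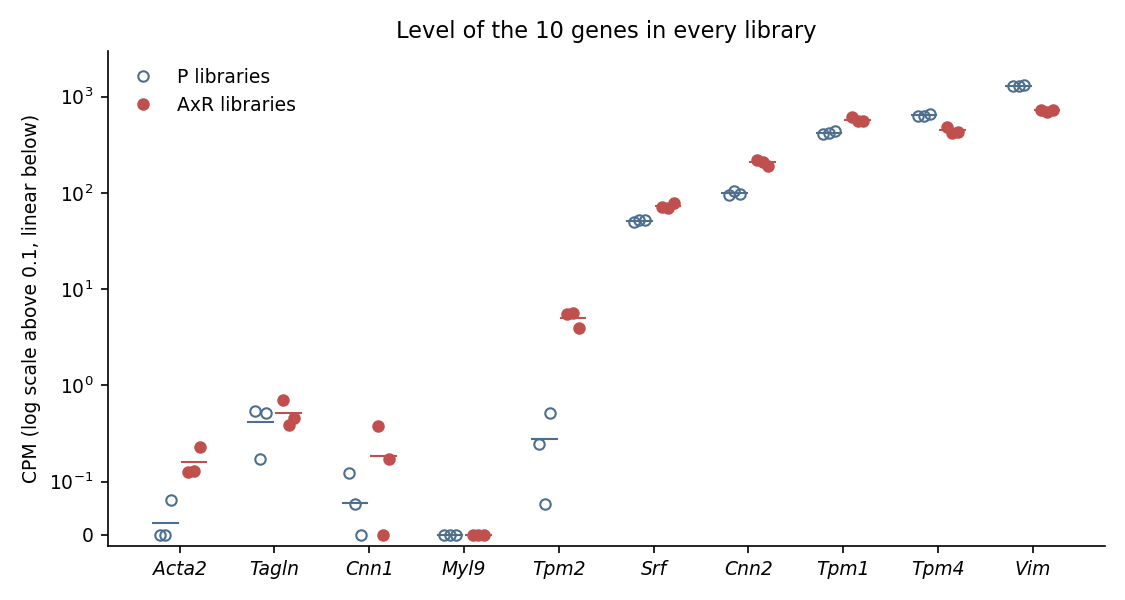
Level of the 10 genes in each library in CPM (vertical axis, logarithmic above 0.1 and linear below), with open points for the 3 P libraries, filled points for the 3 AxR libraries and a line at each mean. Acta2, Tagln, Cnn1 and Myl9 stay under 0.7 CPM in all libraries, and Vim is the highest of the 10 in both lines.

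Tropomyosins form coiled coils along actin filaments, and each gene yields several isoforms that mark different filament populations. Between the lines Tpm1 and Tpm2 rose and Tpm4 fell. Tpm4, at chr8:72134975-72153142, gives the short cytoplasmic tropomyosin of non-muscle cells. Its levels were 628, 625 and 667 CPM in P and 483, 424 and 431 CPM in AxR. All AxR libraries lay below all P libraries, a fall from 640 ± 23.3 to 446 ± 32.2 CPM (SD, n = 3), with log2FC -0.52 (SE 0.0549, adjusted p 8.41e-07 by edgeR's quasi-likelihood test).

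Tpm1, at chr9:67022590-67049406, gives both muscle and cytoplasmic tropomyosins and is a known component of stress fibers. It measured 406, 415 and 435 CPM in P against 614, 561 and 562 CPM in AxR. Again the lines were separate, with a log2FC of 0.47 (SE 0.0505, 1.38-fold, adjusted p 1.11e-06 by edgeR's quasi-likelihood test). The median gene of chromosome 9 moved the other way, at -0.23 over 757 genes tested.

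Tpm2, at chr4:43514711-43523765, gives beta tropomyosin, a muscle form that fibroblast-like cells also make in stress fibers. It was close to the floor in P, with 4, 1 and 8 counts (0.243, 0.0577 and 0.522 CPM), and had 86, 88 and 70 counts in AxR (5.46, 5.61 and 3.98 CPM). All 3 AxR libraries were above the highest P library, and the fitted log2FC of 4.20 (SE 0.363, 18.4-fold) was the largest of the set. Tpm2 entered the test only through its AxR libraries, so its p-value is not given as support. Because the log2FC rests on 13 counts in P, its size depended on single libraries: it was 5.01, or 32.2-fold, without P replicate 3, and 3.70 without P replicate 2. Even in AxR, Tpm2 stayed far below the other tropomyosins.

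Levels of different genes were compared per kb of exon. Tpm3, the remaining tropomyosin, fell from 255 ± 3.71 to 222 ± 18.1 CPM (SD, n = 3; log2FC -0.20, adjusted p 0.00626 by edgeR's quasi-likelihood test). Tpm4 was 73.2 ± 0.347% of the tropomyosin total per kb in P and 61.3 ± 0.568% in AxR (SD, n = 3). Tpm1 took 16.1, 16.4 and 16.3% in the P libraries and 26.6, 27.3 and 27.3% in the AxR libraries, a gain of 10.8 percentage points. The lines did not overlap in either share (exact two-sided permutation p = 0.1). Tpm3 held 10.6 ± 0.275% and 11.1 ± 0.414% with overlapping libraries (exact p = 0.2), and Tpm2 reached 0.523% in AxR. On plain CPM the direction for Tpm3 turned, from 19.4% to 17.7% with no overlap (exact p = 0.1). The tropomyosin total fell from 397 ± 13.1 to 330 ± 22.0 CPM per kb, with no overlap (exact p = 0.1), although on plain CPM the totals of 1314 and 1252 overlapped (exact p = 0.3). The length used was the union of all exons of a gene, which is longer than any single transcript where exons are alternative, as in Tpm1.

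Calponins bind actin through shared repeats, and calponin 2, the product of Cnn2, is made in many non-muscle cells. Cnn2, at chr10:79988584-79996062, measured 94.9, 104 and 98.5 CPM in P and 221, 209 and 192 CPM in AxR. The lines were well separated, at 99.3 ± 4.83 and 207 ± 14.7 CPM (SD, n = 3). Its log2FC was 1.06 (SE 0.0605, 2.09-fold, adjusted p 9.79e-10 by edgeR's quasi-likelihood test), above the chromosome 10 median of 0.25. With Tpm2, which passed the filter only through AxR, it was 1 of 2 genes of the set to rise by a log2FC of at least 1. A rise of that size with a call was reached by 7.99% of all genes tested. By edgeR, DESeq2 or limma-voom, 0 genes of the set fell by that much, also at an unadjusted p under 0.05, beside 4.72% of all genes tested.

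The other calponin in these cells, Cnn3, an acidic form of non-muscle tissue, rose from 313 ± 6.90 to 482 ± 21.5 CPM (SD, n = 3; log2FC 0.62, adjusted p 2.95e-08 by edgeR's quasi-likelihood test). Since Cnn2 rose more, its share of the calponin total per kb went from 28.1 ± 0.680% to 34.7 ± 0.595% (SD, n = 3; exact p = 0.1). The calponin total was 1.70 times as high in AxR, at 243 ± 13.1 against 143 ± 4.00 CPM per kb.

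Srf itself, at chr17:46548329-46556175, stood at 50.1, 52.8 and 51.7 CPM in P and at 70.9, 70.0 and 78.1 CPM in AxR. All AxR libraries exceeded all P libraries, with log2FC 0.50 (SE 0.0604, 1.42-fold, adjusted p 3.31e-06 by edgeR's quasi-likelihood test) beside a chromosome 17 median of 0.18. Its cofactors moved in both directions. Of 7 listed, 6 were tested, 1 was higher and 4 were lower, beside 32.8% higher and 30.8% lower of all genes tested. Elk1 rose from 17.0 to 29.8 CPM (log2FC 0.81, adjusted p 1.8e-07 by edgeR's quasi-likelihood test), while Elk4 fell from 179 to 97.6 CPM (log2FC -0.88) and Elk3 from 244 to 211 CPM (log2FC -0.21). Mrtfb fell from 81.7 to 61.5 CPM (log2FC -0.41, adjusted p 8.13e-06 by edgeR's quasi-likelihood test). Mrtfa fell from 59.4 ± 2.12 to 52.5 ± 4.16 CPM (SD, n = 3; log2FC -0.18, adjusted p 0.0291 by edgeR's quasi-likelihood test), a call that was lost when any of P replicates 1 and 2 or AxR replicates 1 and 2 was left out, with adjusted p up to 0.143. Fhl2, a LIM protein that binds SRF, was at 61.9 and 62.1 CPM and was not called. Myocd, the myocardin of heart and smooth muscle, had no count.

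Vim encodes vimentin, the intermediate filament of mesenchymal cells and of carcinoma cells that have taken on mesenchymal traits, at chr2:13573927-13582826. It was at 1302, 1280 and 1330 CPM in P and at 732, 696 and 728 CPM in AxR. The lines were far apart relative to their spread, at 1304 ± 25.2 and 718 ± 20.0 CPM (SD, n = 3), with log2FC -0.86 (SE 0.0449, 0.551-fold, adjusted p 3.73e-10 by edgeR's quasi-likelihood test). The chromosome 2 median was -0.09. Of 11 other intermediate filament genes, 9 were tested, 6 were higher and 1 was lower, beside 32.8% higher and 30.8% lower of all genes tested. The median log2FC of the 9 was 0.31, beside 0.0058 over all genes tested. Keratins of simple epithelium moved in both directions: Krt7 went from 370 to 720 CPM (log2FC 0.96), Krt8 from 313 to 502 CPM (log2FC 0.68) and Krt18 from 676 to 867 CPM (log2FC 0.36, adjusted p 3.37e-05 by edgeR's quasi-likelihood test), all upward. Krt19, the 1 gene lower, fell from 8.88 to 3.56 CPM (log2FC -1.31, adjusted p 6.57e-07 by edgeR's quasi-likelihood test). Of the 10 epithelial markers, which include Krt7, Krt8, Krt18 and Krt19, 6 were higher and 4 lower in AxR; the other 3 that were lower were the tight junction claudins Cldn3 (log2FC -0.94), Cldn4 (log2FC -0.17) and Cldn7 (log2FC -3.43). Krt19 and the claudins were named after their values were seen.

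**Figure D3:**
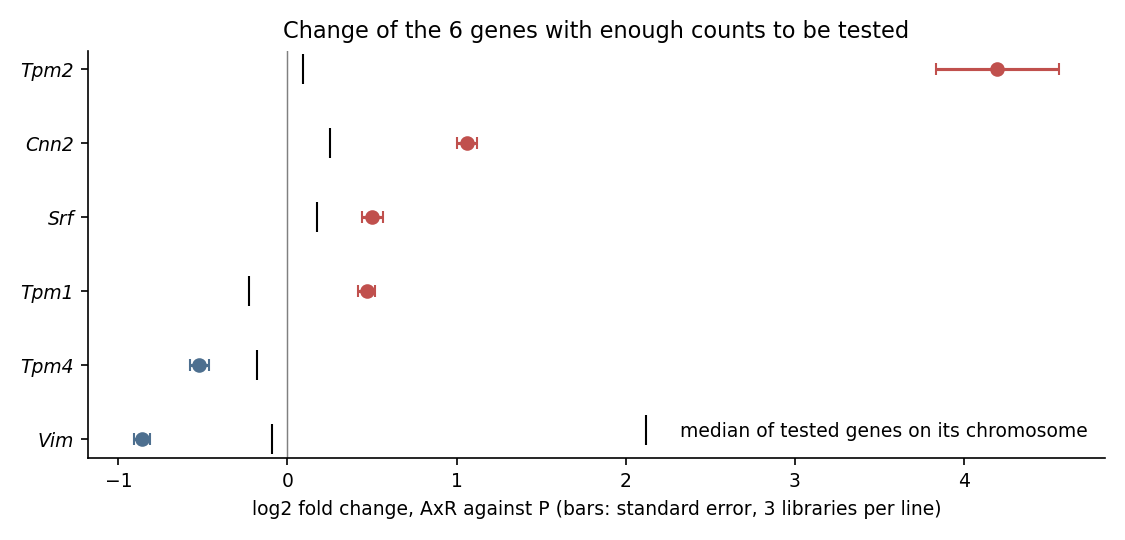
Change of the 6 genes that could be tested, as log2 fold change of AxR against P (horizontal axis) with bars for the standard error and 3 libraries per line. Black ticks mark the median of all genes tested on the same chromosome; Tpm1 at 0.47 and its chromosome median at -0.23 lie on opposite sides of 0, and Tpm2 at 4.20 has the widest bar.

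Ranked by CPM per kb in P, the order was Tpm4 at 291, Vim at 275, Tpm1 at 64.5, Cnn2 at 40.4 and Srf at 17.8, each with all libraries above those of the next. Below a wide gap followed Tagln at 0.208, Tpm2 at 0.0942, Cnn1 at 0.0218 and Acta2 at 0.0099, whose neighbors overlapped, and Myl9 at 0. In AxR the same 5 genes led, but Tpm1 at 89.2 and Cnn2 at 84.3 CPM per kb no longer separated. Tpm2, at 1.73 CPM per kb, stood above Tagln at 0.258 in every AxR library. The order depends on the length used, the union of exons, at 4743 bases for Vim, 6485 for Tpm1 and 2203 for Tpm4. On plain CPM Vim was above Tpm4 in both lines, at 1304 against 640 in P and 718 against 446 in AxR. Tpm1, at 579 CPM in AxR, was there above Tpm4 and separate from Cnn2 at 207 CPM.

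The partners of these genes are the actins and myosin II. Actg1 rose from 831 ± 40.5 to 2362 ± 108 CPM (SD, n = 3), with 785, 863 and 844 CPM in the P libraries and 2437, 2411 and 2238 CPM in the AxR libraries (log2FC 1.51, SE 0.0521, adjusted p 4.45e-12 by edgeR's quasi-likelihood test). Actb, the cytoplasmic beta actin, was at 1913 ± 33.0 and 2088 ± 152 CPM with overlapping libraries, and its call (log2FC 0.13, adjusted p 0.0486 by edgeR's quasi-likelihood test) held in 2 of 13 alternative analyses. The make-up of the actin pool differed accordingly. Actg1 was 30.4 ± 0.930% of actin per kb in P and 53.3 ± 0.725% in AxR (SD, n = 3; exact p = 0.1), while Acta2 was 0.00446% in AxR. The actin total per kb was 1.63 times as high in AxR. Actb and Actg1 encode nearly identical proteins, and so do Myl12a and Myl12b. Where the sequences of a pair match, the division of reads rests on the estimation step. How many reads this covers was not tested.

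Of 8 myosin II chains, 6 were tested, 5 were higher and Myh10 was not called, beside 32.8% of all genes tested called higher. Myh9, the main non-muscle heavy chain, rose from 799 ± 10.5 to 1230 ± 61.1 CPM (SD, n = 3; log2FC 0.62, adjusted p 2.7e-08 by edgeR's quasi-likelihood test). Its share of the heavy chains per kb went from 65.8 ± 0.312% to 71.5 ± 0.290% (SD, n = 3; exact p = 0.1). Myh10, the IIB heavy chain, was at 286 and 315 CPM and was not called (adjusted p 0.0523 by edgeR's quasi-likelihood test), though it passed in 5 of 13 alternatives. With no read for Myl9, the regulatory light chains were Myl12a at 428 and 479 CPM and Myl12b at 106 and 126 CPM in P and AxR. Both were higher in AxR (log2FC 0.16 and 0.24), as was the light chain Myl6 (log2FC 0.27).

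**Figure D4:**
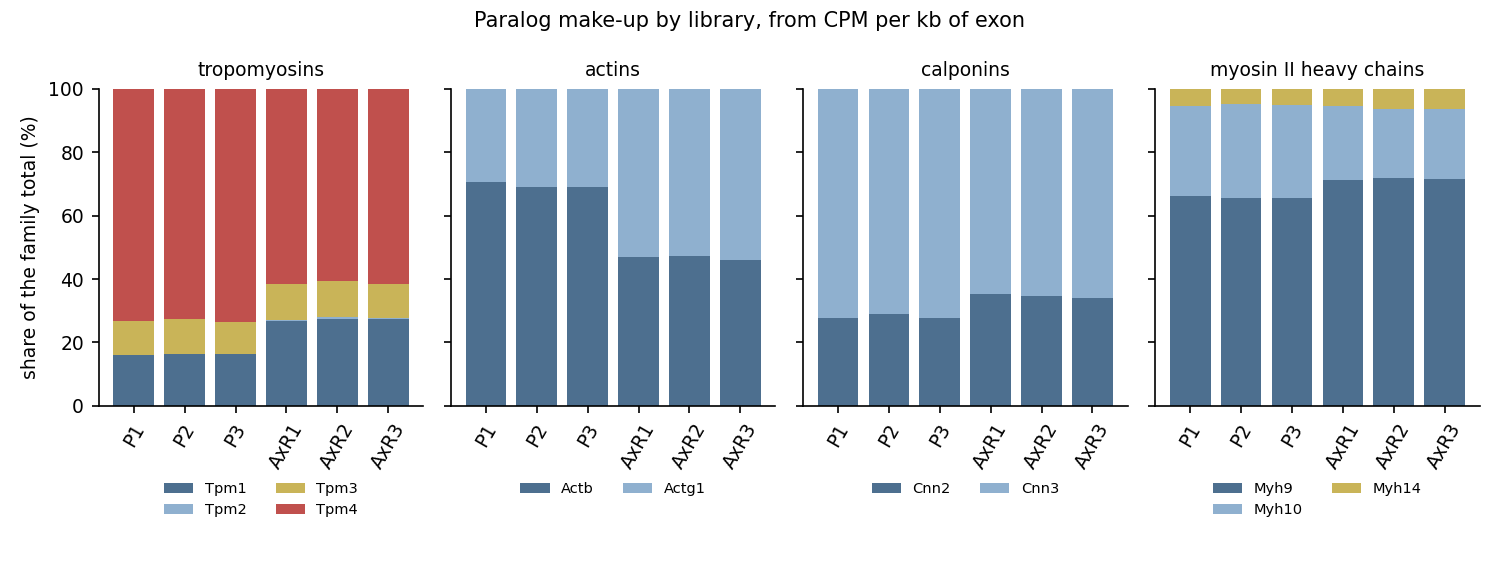
Share of each paralog (vertical axis, percent of the family total in CPM per kb of exon) in each of the 6 libraries (horizontal axis), for tropomyosins, actins, calponins and myosin II heavy chains. Members near 0% are not visible. Tpm1 is 16.1 to 16.4% in the P libraries and 26.6 to 27.3% in the AxR libraries, and Actg1 goes from 30.4% to 53.3% on average.

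Beyond these families, 28 other actomyosin genes were listed, some of which are the actins and myosins above, and 25 were tested. Of these 14 were higher and 7 lower in AxR, beside 32.8% higher and 30.8% lower of all genes tested. The median log2FC of the 25 was 0.16. Vcl, which encodes the adhesion protein vinculin, rose from 129 to 201 CPM (log2FC 0.64, adjusted p 3.85e-08 by edgeR's quasi-likelihood test). Csrp1, a LIM protein of actin bundles, fell from 147 to 80.3 CPM (log2FC -0.87), and Lasp1, another actin-binding LIM protein, fell from 371 to 258 CPM (log2FC -0.52).

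Mylk encodes myosin light chain kinase, which phosphorylates the regulatory light chain. It was at 1.64, 0.808 and 1.37 CPM in P and 30.5, 29.5 and 26.1 CPM in AxR (log2FC 4.50, SE 0.156, adjusted p 4.45e-12 by edgeR's quasi-likelihood test). All 3 AxR libraries lay far above the P libraries.

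SRF targets were counted in separate lists, those usually placed under MRTFs and those under ternary complex factors. Of 24 MRTF-class targets, 22 were tested, with a median log2FC of 0.07. Of these 11 were higher, 5 lower and 6 not called, beside 32.8% higher and 30.8% lower of all genes tested. This list shares 11 genes with the actomyosin list (45.8% of the MRTF-class list and 39.3% of the other). Thbs1, the matrix protein thrombospondin 1, rose from 207 ± 15.7 to 863 ± 97.2 CPM (SD, n = 3; log2FC 2.06, adjusted p 3.08e-09 by edgeR's quasi-likelihood test), and Ccn1, a secreted matricellular protein, rose from 150 to 334 CPM (log2FC 1.16). Ankrd1, a nuclear ankyrin repeat protein, fell from 272 to 134 CPM (log2FC -1.02), and Myo1e, a membrane-linked myosin, from 119 to 80.7 CPM (log2FC -0.56). Full CArG boxes were found in 7 of the 18 genes of this list that had a window. Of these Actg1, Vcl and Lima1 were higher in AxR and Myo1e was lower. Fhl2 and Filip1l were not called, and Fhl1 was not tested. A gene counted here if any of its windows held a full box, while the 1.47% over the whole table is per window. Because the list was drawn up as SRF targets, its share of boxes is not a separate result. Of 10 TCF-class targets, 4 were higher, 3 lower and 3 not called, with a median log2FC of 0.19. Fosb, an AP-1 subunit, rose from 4.27 to 10.6 CPM (log2FC 1.31), while Fosl1, another, fell from 223 ± 16.5 to 71.0 ± 9.47 CPM (SD, n = 3; log2FC -1.65, adjusted p 1.64e-08 by edgeR's quasi-likelihood test). Neither list moved in 1 direction.

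**Figure D5:**
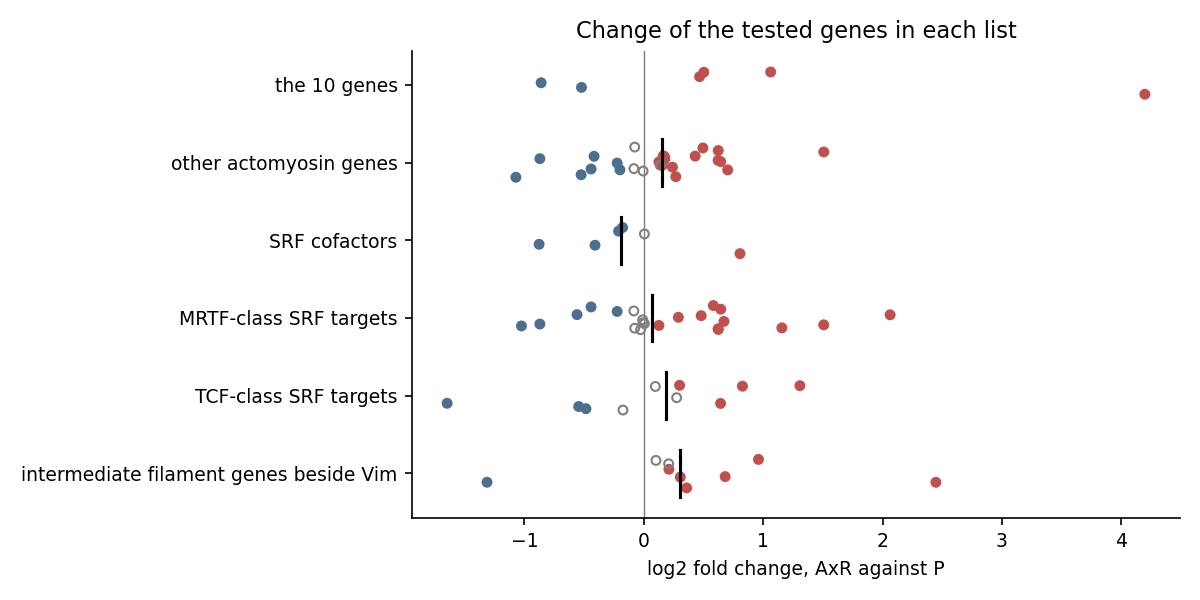
Change of each tested gene in the set and in 5 related lists, as log2 fold change of AxR against P (horizontal axis); red points are higher in AxR, blue points lower, and open points not called. Black bars are list medians, from -0.19 for the SRF cofactors to 0.31 for the intermediate filament genes; no bar is drawn for the 10 genes, of which 4 were not tested.

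Markers of other cell types were set beside Tpm2. Mylk is itself 1 of 7 myoepithelial markers listed, and of the others Krt14 and Trp63 were tested. Krt14, a basal keratin, was at 1.09 ± 0.388 CPM in P and 5.95 ± 1.84 CPM in AxR (SD, n = 3), with no overlap. Trp63, a transcription factor of basal cells, passed the filter only through AxR, with 2, 0 and 1 counts in P and 15, 17 and 23 in AxR. The summed list was 2.08 to 3.06 CPM in P and 32.0 to 39.7 CPM in AxR, where most of it was Mylk, and Krt5 had no count. Of 10 fibroblast markers 1 was tested, Postn, which encodes the matrix protein periostin and rose from 9.56 ± 1.21 to 270 ± 13.2 CPM (SD, n = 3; log2FC 4.82, adjusted p 5.88e-15 by edgeR's quasi-likelihood test). The summed fibroblast list was 8.93 to 11.7 CPM in P and 258 to 285 CPM in AxR, nearly all Postn, and Col3a1, Lum and Thy1 had no count in any library. The part of these cell types in the change of Tpm2 was not tested.

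The genes most like Tpm2 and Vim were sought among all genes tested with a mean of at least 10 CPM, by the root mean square difference of centered log2 CPM over the 6 libraries. For Tpm2 these were Gbp4, an interferon-inducible GTPase (difference 0.312, 1.65 CPM in P and 21.4 CPM in AxR), Car9, a carbonic anhydrase (0.424), and Slc4a4, a bicarbonate transporter (0.454). For Vim they were Usp16, a deubiquitinase (0.0233, 72.1 CPM in P and 38.8 CPM in AxR), Mdm4, a p53 inhibitor (0.0260), and Nol8, a nucleolar protein (0.0279). With 2 lines, the measure depends mainly on the size of the difference between them.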

How the data were processed

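RNA from 3 libraries each of 4T1 P and AxR was sequenced from stranded poly(A) libraries. The authors checked reads with FastQC 0.11.5, aligned them to GRCm38 with STAR 2.6.0a and deposited RSEM 1.3.1 estimated counts per gene, which need not be whole because reads shared by similar genes are divided among them. Values were rounded to whole numbers. Symbols, positions and exon lengths came from GENCODE M21 (GRCm38), matched by gene ID for 53360 of 53465 IDs, and promoter windows from RefSeq. edgeR 4.0.16 in R 4.3.3 was run with its low-count filter, upper quartile factors and robust quasi-likelihood fits over all 6 libraries, which left 13550 genes holding 99.9% of counts; 28729 genes had no count. Benjamini-Hochberg adjustment covered all genes tested. Single gene levels were tested by exact two-sided permutation of log2(CPM + 0.5). The exact p-values printed are for family shares and totals, which were permuted in the same way but without the log or the added value. The fitting step was tested on simulated data. Groups came from sample titles. Replicate numbers did not pair the samples: correlations of deviations from the line means were -0.0213, -0.0061 and -0.0217 between same-numbered libraries. Alternatives were other scaling (TMM, library size), DESeq2 1.42.0, limma-voom (limma 3.58.1), other filters, a replicate block, leaving out each library, and a fold threshold. Named from each list were all of the set, and up to 3 called genes at either end with at least 10 CPM in the higher line; genes of the actin, tropomyosin, calponin, myosin and SRF cofactor lists could all be named, and the myoepithelial and fibroblast markers named were picked with their values in view. Genes of the MRTF-class list with a full CArG box were also named. The 10 genes and the lists were chosen with earlier results of these data known. Intervals and floors cover counting error only. No sequencing batch is given. Some results of the context lists are not reported here.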

Additional observations from a re-analysis of the deposited data

How the results depend on the processing

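The calls of Cnn2, Tpm1, Srf, Tpm4 and Vim kept their direction and stayed past the threshold in every alternative that gave a value. Cnn2 ranged from 1.02 to 1.12 on the log2 scale, Tpm1 from 0.43 to 0.50 and Srf from 0.45 to 0.54. Tpm4 ranged from -0.58 to -0.48 and Vim from -0.88 to -0.83. Tpm2, which passed the filter only through AxR, ranged from 3.70 to 5.01, and its p-values are not given as support. It gave no value when at least 10 counts were required in every library. Requiring a log2FC of at least 1 in either direction left 2 genes of the set higher and 0 lower by edgeR, with 0 also at an unadjusted p under 0.05 and by DESeq2 and limma-voom, and 1083 genes higher and 640 lower among all tested. Without length scaling, the share of Tpm1 rose by 14.4 and those of Tpm4 and Tpm3 changed by -13.1 and -1.68 percentage points. Fhl2, not called in any setting, turned from 0.01 to -0.0064 (TMM), -0.015 (unscaled library sizes), -0.0075 (DESeq2) and -0.0078 (limma-voom), and lay between -0.052 and 0.054 with 1 library left out. No scaling moved the median of all genes by over 0.1. The replicate block left 4 genes of the set higher and 2 lower, and 4304 and 4023 of all genes, against 4441 and 4167 without it. Tagln2 was lost without P replicate 1 (adjusted p 0.0503 by edgeR). Depth limits Acta2, Tagln, Cnn1 and Myl9, which have at most 11 counts in every library, and bulk estimated counts do not resolve isoforms.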
